A study of Mus musculus with 27 samples.

Results

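The first hours of Smoothened blockade were followed in medulloblastoma allografts by comparing 3 tumours of mice given LDE225 with 3 tumours of mice given vehicle, all labelled with a treatment time of 4 h. These 6 arrays were chosen by their titles, out of 21 RNA arrays and 27 samples in the whole series. All the tumours, the vehicle group included, had the genotype label Ptch+/-p53-/-, which stands for no p53 and heterozygous Ptch. Whether the tumour cells kept a working copy of Ptch was not checked here. Cells taken straight from tumours of such mice had been grafted under the skin of the right flank in Harlan nu/nu animals, athymic mice that lack a normal set of T cells. Dosing began about 10 days later, with mice assigned at random to groups of similar mean tumour volume. The treated animals received NVP-LDE225, a small-molecule antagonist of Smoothened, once daily at 20 mg/kg/day, and these tumours were labelled sensitive. Whether the cells came from 1 donor tumour or from several is not given in the sources used here. The host tissue and blood vessels of a graft grown outside the brain are part of each sample.

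In Hedgehog signalling the receptor Ptch1 holds the membrane protein Smoothened inactive until a Hedgehog ligand binds. Active Smoothened releases the Gli transcription factors, which switch on a small set of direct targets that include Gli1 and Ptch1 themselves, so that the output of the pathway reports on its own activity. In the cerebellum the pathway drives the division of granule neuron precursors, and loss of Ptch1 in these cells gives rise to medulloblastoma in mice.

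The arrays carry probe sets, groups of short probes that each report 1 transcript or a few related ones. The tables used here pair no probe set with a gene, so changes are given by probe set, at most 2 of each direction are identified, and 1 gene may stand behind several of them. For the same reason the label medulloblastoma, the Hedgehog target genes and the markers of host cell types were not checked against the data. In bulk tumour RNA, fewer cells of a type and less RNA per cell cannot be told apart. Signals are linear MAS5 intensities, and fold changes are on the scale of log2 of the signal plus 4.

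The 6 arrays were of like brightness. Array means lay between 224.0 and 239.5, the 40th percentile of signal lay between 11.2 and 15.7, and the correlation between pairs of arrays on the log2 scale lay between 0.957 and 0.980. For actin, the 3′ signal divided by the 5′ signal, which rises as RNA degrades, averaged 1.74 ± 0.135 (SD, n = 3) in vehicle and 1.62 ± 0.0840 (SD, n = 3) in treated tumours, a difference that missed the threshold (exact two-sided permutation p = 0.3, 0.514 after Benjamini-Hochberg adjustment over 9 such tests). For Gapdh it averaged 0.935 ± 0.0822 (SD, n = 3) and 0.854 ± 0.0483 (SD, n = 3), which also missed the threshold (p = 0.2 in the exact two-sided permutation test, adjusted 0.514). With 3 tumours on each side no such p can go below 0.1. The 3′ control probe set of pyruvate carboxylase, a mitochondrial enzyme that supplies oxaloacetate, read 635.2, 634.9 and 664.0 in vehicle and 492.2, 442.4 and 542.2 in treated tumours. The groups did not overlap for this enzyme (exact two-sided permutation p = 0.1, adjusted 0.45). The 5′ control probe set of 18S ribosomal RNA read 52.8, 56.4 and 31.5 in vehicle and 65.5, 196.6 and 66.2 in treated tumours. The groups did not overlap for this RNA either (exact two-sided permutation p = 0.1, adjusted 0.45). Here LDE225 tumour 2 stood apart from the other 5 arrays. Of all probe sets tested, 13.6% had groups that did not overlap. For the 3′ control probe sets of actin, Gapdh and the transferrin receptor the groups overlapped.

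The early response was small and went mostly downward. Of 32842 probe sets tested, 34 (0.104%) had changed at 4 h (limma, adjusted p below 0.05), of which 31 (0.0944% of those tested) had fallen and 3 (0.00913%) had risen. Their median log2 change was -1.29, a 2.44-fold fall, with a range from -0.81 to -3.04, and 30 of the 31 had fallen at least 2-fold and 5 at least 4-fold. Over all probe sets tested the median log2 change was 0.02 and 47.6% lay below 0. Without adjustment for multiple tests, 2090 probe sets (6.36%) had a p below 0.05, and these were divided almost evenly, with 958 (2.92% of those tested) lower and 1132 (3.45%) higher.

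**Figure D1:**
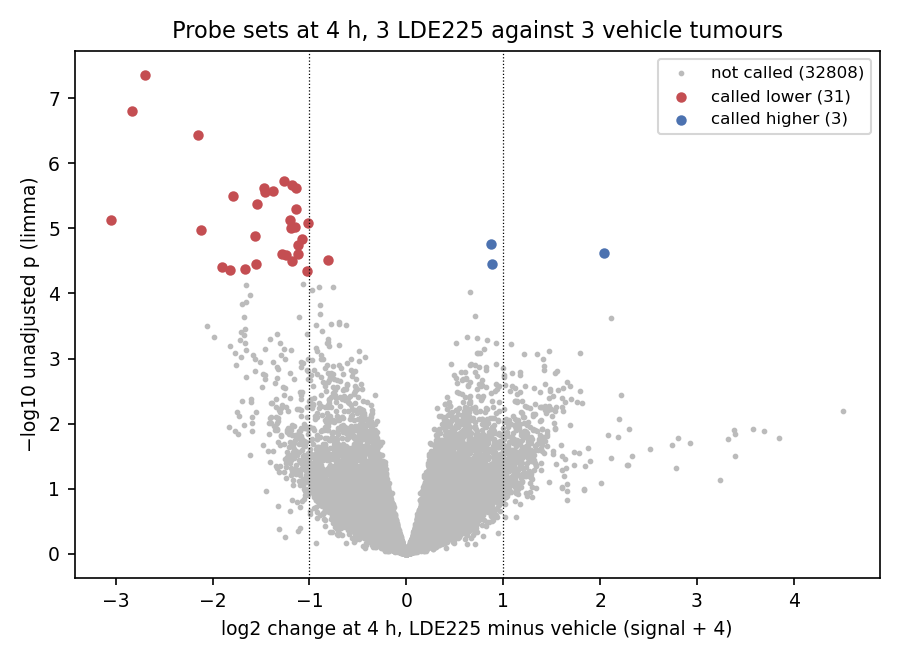
Log2 change at 4 h (LDE225 minus vehicle, on signal plus 4) on the x axis against −log10 of the unadjusted limma p on the y axis, 1 point per probe set tested. The 31 red points, called lower, lie between -3.04 and -0.81, and the 3 blue points, called higher, do not go past 2.04, while grey points that were not called reach 4.51.

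With the constant of 4, the largest fall belonged to the probe set 1426872_at. Among vehicle tumours its signal was 67.5, 44.2 and 67.3, and after LDE225 it was 3.5, 4.7 and 2.7. The groups were far apart, and each treated value lay below the 40th percentile of its array, in the dimmest part of the array. The log2 change was -3.04 (standard error 0.50, limma, adjusted p = 0.017). Its size moved with the constant added before taking logarithms, from -3.71 when 1 was added to -1.35 when 32 was added. With 16 or 32 added, and without LDE225 tumour 3, 1449058_at had the larger fall, so the order of these 2 is not fixed. The call of 1426872_at held with 1 and with 32 added (limma, adjusted p = 0.029 and 0.0078 respectively).

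The other fall named here, 1449058_at, was brighter on both sides. It read 470.1, 404.7 and 599.9 in vehicle and 55.4, 57.3 and 84.7 in treated tumours. The lowest vehicle tumour was still far above the highest treated one, and treated tumours kept 13.4% of the vehicle mean. The log2 change was -2.83 (standard error 0.35, limma, adjusted p = 0.0026), and stayed between -2.89 and -2.42 when the added constant ran from 1 to 32.

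The rises were few. The probe set 1427782_a_at read 2.1, 1.2 and 1.6 in vehicle and 15.7, 27.3 and 16.2 in treated tumours. All the vehicle values lay below the 40th percentile of their arrays, and the rise was 2.04 on the log2 scale (limma, adjusted p = 0.033, standard error 0.37). Adding 32 in place of 4 brought it to 0.61, where the call was lost (limma, adjusted p = 0.095). The probe set 1436923_at read 52.1, 42.8 and 50.0 in vehicle and 88.4, 104.9 and 85.6 in treated tumours. The groups did not overlap, and the log2 change was 0.89 (standard error 0.17, limma, adjusted p = 0.038). This call was lost in 14 of 20 alternatives, among them quantile normalization (log2 change 0.85, limma, adjusted p = 0.07), 32 added to the signal (log2 change 0.64, limma, adjusted p = 0.074) and each of the 6 fits without a tumour.

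**Figure D2:**
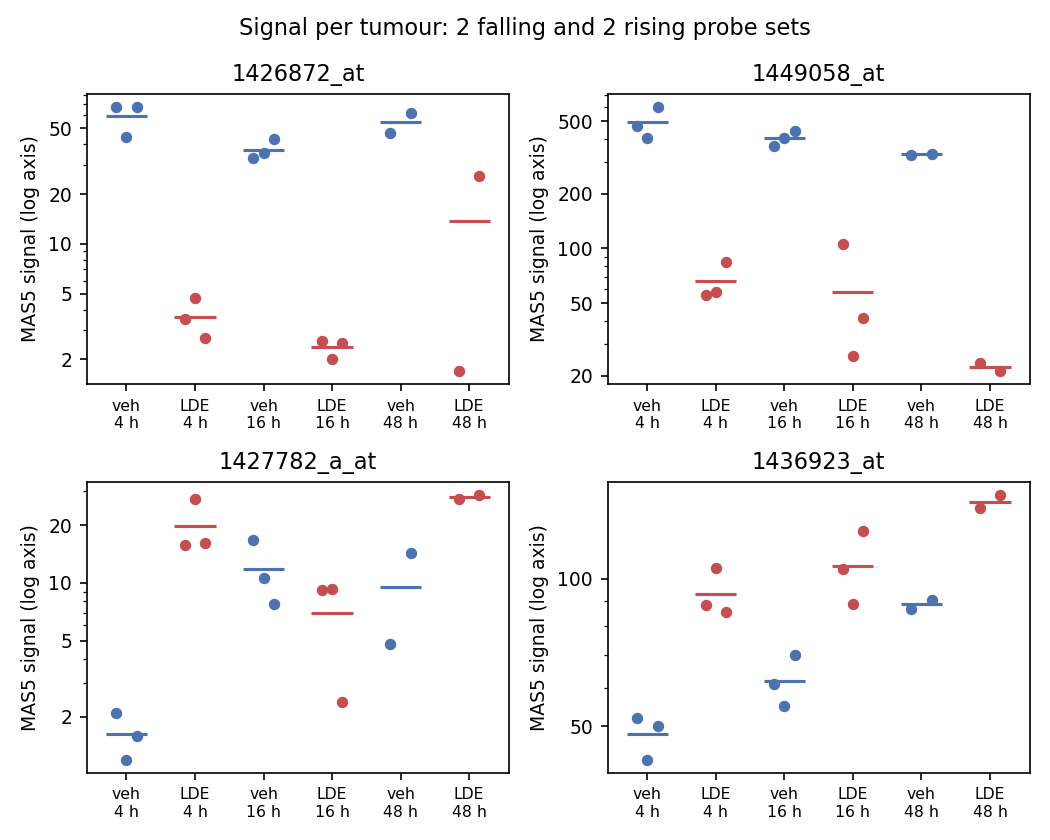
MAS5 signal on a log axis for the 2 falling and the 2 rising probe sets with the largest changes among those called at 4 h, by treatment and time; each point is 1 tumour and each line a group mean, with vehicle in blue and LDE225 in red. At 4 h the 3 treated tumours of 1449058_at lie between 55.4 and 84.7 and the vehicle tumours between 404.7 and 599.9, while vehicle tumours of 16 h and 48 h for 1427782_a_at reach 16.8 and 14.3, against 15.7 to 27.3 in treated tumours of 4 h.

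The 31 probe sets that fell covered a wide range of brightness in untreated tumours. Their vehicle means ran from 21.9 to 3638, with a median of 376.6, against a median of 63.3 over all probe sets tested. Of the 31, 3 averaged under 100 in vehicle tumours, 17 between 100 and 500, 7 between 500 and 1000, and 4 at least 1000. In treated tumours their means ran from 2.87 to 1787. Treated tumours kept between 6.09% and 57.0% of the vehicle mean, with a median of 40.3%. Most of the falls were thus partial by 4 h, and 2 of the 31 ended at a mean below 10. By the form of the identifier, 27 of the 34 called probe sets were of the plain kind (76.8% of all tested) and 3 ended in _x_at (5.79%). A further 2 ended in _s_at (5.58%), which Affymetrix gave to probe sets shared by several transcripts. The last 2 ended in _a_at (11.9%), given to those shared by transcripts of 1 gene.

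The treated tumours fell alike. For all 34 called probe sets the 3 values of one side lay wholly above the 3 of the other, which held for 13.6% of all probe sets tested, 6.33% with treated tumours lower and 7.27% with treated tumours higher. The gap between the nearest tumours of the 2 sides had a median of 0.97 on the log2 scale for the 31 falls and was at least 0.57. Taken tumour by tumour, the median log2 distance of the 31 from the vehicle mean was -1.35, -1.36 and -1.37 in LDE225 tumours 1, 2 and 3, and 27, 28 and 26 of the 31 lay at least 2-fold below that mean. From the other side, vehicle tumours 1, 2 and 3 stood above the treated mean by a median of 1.33, 1.23 and 1.43. Vehicle tumour 2 was the lowest of its group for 18 of the 31, against 6 and 7 for vehicle tumours 1 and 3. The treated tumour closest to vehicle was tumour 3 for 14, tumour 1 for 11 and tumour 2 for 6 of the 31. These probe sets were called on the same 6 tumours, which favours tight groups: their median SD was 0.15 in vehicle and 0.17 in treated tumours, against 0.24 and 0.24 over all probe sets tested.

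Each tumour was left out in turn. Without vehicle tumours 1, 2 and 3 in turn, 2 of the 34 (background 0.00609% of probe sets called in that fit), 4 (background 0.0122%) and 4 (background 0.0122%) were called again. Without LDE225 tumours 1, 2 and 3, 9 (background 0.0304%), 5 (background 0.0152%) and 18 (background 0.0944%) were. Each background counts members of the 34 too. Every fit kept the other tumours on which the 34 had been called, so these counts are no independent test. Since the groups of all 34 did not overlap, leaving out a tumour could not turn a direction. In each of the 6 fits all 34 had an unadjusted p below 0.05 (limma), which 6.36% of all probe sets had with all tumours. The change of any one stayed between 83.9% and 116% of its size with all tumours. The 34 had been called with these same tumours included, which favours both. The median log2 change of the 31 ran from -1.25 to -1.37. The adjusted p rose, its median over the 34 going from 0.0195 to between 0.038 and 0.15 (limma). Fewer tumours on a side also widen the error. The median standard error of the 34 lay between 0.24 and 0.25 in these fits, against 0.22 for the 31 falls with all tumours. A lost call therefore need not mean that the change rested on the tumour left out. Of the 34, 2 were called in all 6 fits, 1449058_at among them (limma, adjusted p between 0.0098 and 0.029), and 15 in none, 1426872_at among them (limma, adjusted p between 0.056 and 0.14).

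None of the 3 rises was called again in any of these 6 fits. The adjusted p of 1427782_a_at lay between 0.056 and 0.31 and that of 1436923_at between 0.059 and 0.34 (limma). Without LDE225 tumour 3 the total was 31, of which 21 were lower and 10 higher, and 13 of these were not among the 34. Its absence left the total nearest to the full count, with a different makeup.

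**Figure D3:**
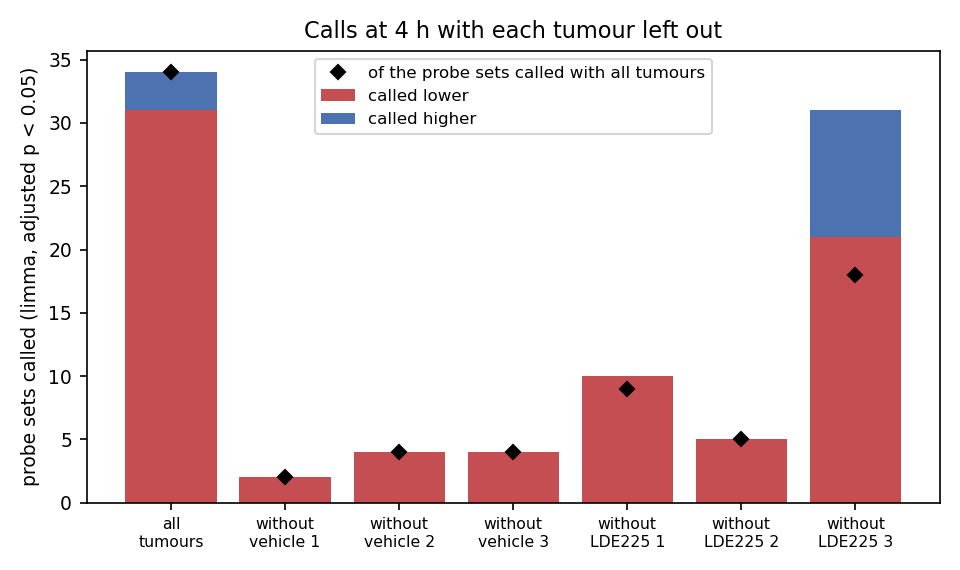
Number of probe sets called at 4 h (limma, adjusted p below 0.05) with all tumours and with each of the 6 tumours left out; bars divide calls into lower (red) and higher (blue), and diamonds count those among the 34 called with all tumours. Without any 1 of the vehicle tumours at most 4 are called, and without LDE225 tumour 3 the bar reaches 31 while the diamond stands at 18.

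The count also moved with the arrays that supplied the estimate of spread. All 21 arrays shared 1 estimate here, resistant tumours included. With the 16 arrays of vehicle and sensitive tumours alone, 126 probe sets were called, 109 lower and 17 higher, and all 34 were among them. With only the 6 arrays of 4 h the number was 118, 92 lower and 26 higher, with 31 of the 34 among them. Falls outnumbered rises in each of the 14 other settings of the planned analysis, but by unlike margins. They made up 96.8% of calls with 16 or 32 added to the signal. With a block on mouse number and only the 6 arrays they made up 61.1%, 240 lower against 153 higher. All these settings share the same 6 tumours of 4 h, so they are no independent tests. Of the 34, 12 were called in all of these 14, each of them a fall.

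Most large differences at 4 h did not pass. In all, 705 probe sets (2.15%) differed by at least 2-fold, 284 lower (0.865%) and 421 higher (1.28%), and 674 of them were not called, 254 lower and 420 higher. Most were dim: in 605 of the 674 the higher group averaged under 100, and when 32 in place of 4 was added to the signal the count was 53, 29 lower and 24 higher, of which 52 were among the 674. The remaining 69, with a higher group mean of at least 100, were made up of 48 that were lower and 21 that were higher in treated tumours. Both sets were formed after seeing the data.

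The 48 were lower in each treated tumour by like amounts. Their median log2 distance from the vehicle mean was -1.28, -1.36 and -1.28 in LDE225 tumours 1, 2 and 3, close to that of the called falls. In 47 of the 48 the groups did not overlap, against 6.33% of all probe sets tested with treated tumours lower, but the 48 were picked for their size on these same 6 tumours. Their adjusted p started at 0.068 and had a median of 0.35 (limma). Leaving out any 1 tumour brought between 4 and 8 of the 48 below 2-fold, and 31 stayed at or above it whichever tumour was left out. The later tumours share no array with those of 4 h, though all times shared 1 estimate of spread. Of the 48, 35 were called lower at 16 h, against 6.53% of all probe sets tested, and 32 at 48 h, against 11.1% (limma, adjusted p below 0.05).

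In 18 of the 21 that were higher the groups did not overlap (7.27% of all probe sets tested, and the 21 too were picked on these tumours), and 15 stayed at or above 2-fold whichever tumour was left out. Each of the 21 had its highest treated value in LDE225 tumour 2, and 9 stood there at least 2-fold above both other treated tumours. Across the 3 treated tumours the median log2 distance from the vehicle mean was 1.49, 3.08 and 2.02 in LDE225 tumours 1, 2 and 3. Their adjusted p was at least 0.3 (limma). Leaving out any 1 tumour brought between 0 and 5 of the 21 below 2-fold, with 5 without vehicle tumour 3 and 4 without LDE225 tumour 2. Vehicle tumours of other times also carried them. Set against the vehicle mean of 4 h, the 21 averaged 2.97 on the log2 scale in vehicle tumour 1 of 16 h and 2.74 in vehicle tumour 1 of 48 h, but -0.21 in vehicle tumour 3 of 16 h. Treated tumours of the later times ranged from 0.96 to 3.54, and resistant tumours from 1.46 to 2.46, and the lowest 4 of all arrays were the 3 vehicle tumours of 4 h and vehicle tumour 3 of 16 h. None of the 21 was called higher at 16 h, where 7.87% of all probe sets were, or at 48 h, where 11.6% were (limma). Their median log2 change was 0.99 at 16 h (range -0.21 to 2.18) and 1.19 at 48 h (range -0.76 to 3.46). Over all probe sets tested the medians were 0.09 and 0.09. At an unadjusted p below 0.05, 1 of the 21 was higher at 16 h (15.8% of all probe sets were) and 1 at 48 h (18.4%). The 21 were picked for a large difference that missed the threshold, which favours a wide spread. The same estimate of spread served the later times, so these low counts cannot show whether the rises recurred. The 18S signal of 196.6 in LDE225 tumour 2 was also the highest of the 4 h arrays, as was its 40th percentile of 15.7, and their part in the result was not tested.

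The levels of the 31 falls were then set beside those in the other tumours. The 5 vehicle tumours of 16 h and 48 h averaged -0.25 in the mean log2 level of the 31, set against the vehicle mean of 4 h, and the treated tumours of 4 h averaged -1.52 ± 0.0450 (SD, n = 3), a difference of -1.27. For 30 of the 31, every treated tumour of 4 h lay below each of the 8 vehicle tumours with an RNA array, which held for 1.27% of all probe sets tested. The treated tumours and 3 of these 8 are those on which the 31 were called. The level in treated tumours was -1.76 ± 0.181 (SD, n = 3) at 16 h and -2.17 ± 0.0912 (SD, n = 2) at 48 h. Tumours labelled resistant came from mice dosed bid, with a treatment day of 26. Those given 20 mg/kg/day had a level of -0.60 ± 0.379 (SD, n = 2), and those given 160 mg/kg/day one of -0.32 ± 0.297 (SD, n = 3). Of these 5 tumours, the lowest stood at -0.87 and the highest at -0.04. Each lay above every sensitive treated tumour, and 2 lay below all the vehicle tumours. The vehicle RNA arrays were of 4, 16 and 48 h, with none of day 26. Resistance therefore cannot be told apart here from schedule and length of treatment.

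**Figure D4:**
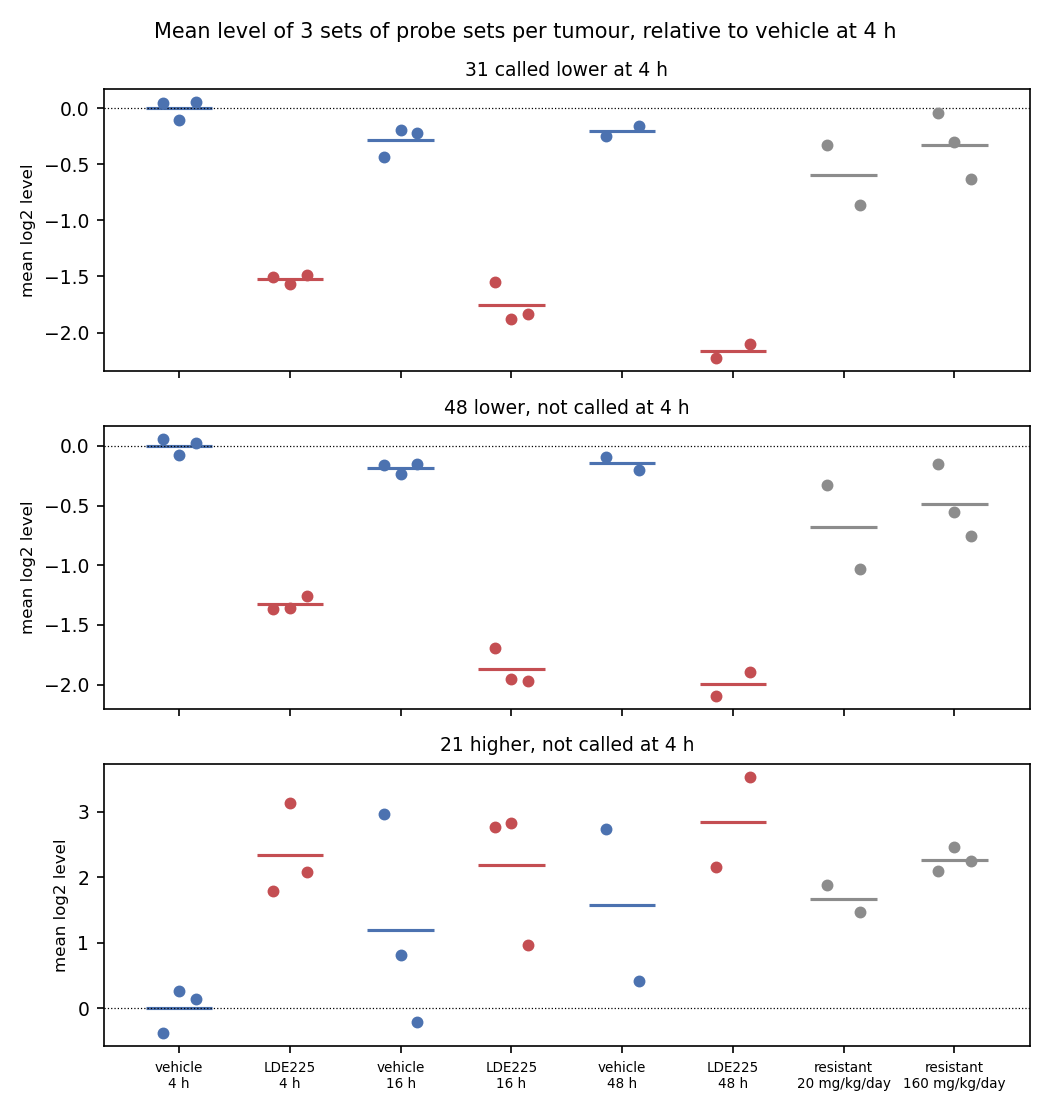
Mean log2 level per tumour, relative to vehicle tumours of 4 h, of the 31 probe sets called lower at 4 h (top), the 48 that were lower by at least 2-fold without being called (middle) and the 21 that were higher by at least 2-fold without being called (bottom, both with a higher group mean of at least 100); each point is 1 tumour, lines are group means, with vehicle blue, LDE225 red and resistant grey. The top panel stays between -0.44 and 0.06 in vehicle tumours and between -1.48 and -2.23 in sensitive treated ones, while the bottom panel reaches 2.97 in a vehicle tumour.

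By probe set, the median log2 change of the 31 was -1.40 at 16 h and -2.29 at 48 h, against 0.09 and 0.09 over all probe sets tested. At all 3 times 24 of the 31 were called lower, and 2 were called lower at 4 h only. Over all probe sets tested, 6.53% were called lower at 16 h, 11.1% at 48 h and 4.04% at both. All times shared 1 estimate of spread, and calling the 31 at 4 h favours a small one, so these shares are not like for like. The median standard error at 4 h was 0.22 for the 31 and 0.27 over all probe sets tested. The probe set 1449058_at had log2 changes of -2.94 at 16 h and -3.66 at 48 h (standard errors 0.35 and 0.43, limma, adjusted p = 1.4e-05 and 1.2e-05). Its treated tumours read 105.2, 25.8 and 41.6 at 16 h and 23.5 and 21.2 at 48 h, so that 1 tumour of 16 h was above all those of 4 h. The probe set 1426872_at had log2 changes of -2.68 and -2.15 (standard errors 0.50 and 0.61, limma, adjusted p = 0.0011 and 0.016). Its treated tumours read 2.6, 2.0 and 2.5 at 16 h but 1.7 and 25.7 at 48 h, where they were far apart.

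Whether the effect grew after 4 h was tested directly. Of the 31, the log2 change at 16 h was lower than at 4 h for 2 and higher for 1 (of all probe sets 3.83% differed, 2.17% lower at 16 h and 1.66% higher; limma, adjusted p below 0.05), with a median difference of 0.01. At 48 h it was lower for 9 and higher for 2 (of all probe sets 12.8% differed, 6.7% lower and 6.1% higher), with a median difference of -0.63. The 1 that was higher at 16 h and both that were higher at 48 h had log2 changes above 0 there, so they were no longer below vehicle. Of the 31, 1 was called higher than vehicle at 48 h, against 11.6% of all probe sets. These differences include the 4 h tumours on which the 31 were called, so they are no independent test. For 1449058_at the difference from 4 h was -0.10 at 16 h (standard error 0.50, limma, adjusted p = 0.95) and -0.83 at 48 h (standard error 0.56, limma, adjusted p = 0.37). For 1426872_at it was 0.36 (standard error 0.71, limma, adjusted p = 0.85) and 0.89 (standard error 0.79, limma, adjusted p = 0.51). These errors are too wide to show a change in effect for either.

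Of the 3 rises, 1 was called higher at 16 h (7.87% of all probe sets tested) and 3 at 48 h (11.6%). As for the falls, all times shared 1 estimate of spread. The probe set 1436923_at had log2 changes of 0.73 and 0.67 (standard errors 0.17 and 0.20, limma, adjusted p = 0.0051 and 0.022), and its vehicle means at the 3 times, which were not tested against each other, were 48.3 ± 4.88 (SD, n = 3) at 4 h, 62.0 ± 7.59 (SD, n = 3) at 16 h and 88.7 ± 2.55 (SD, n = 2) at 48 h. The last of these is close to the 93.0 ± 10.4 (SD, n = 3) of treated tumours at 4 h. The probe set 1427782_a_at read 16.8, 10.6 and 7.8 in vehicle and 9.2, 9.3 and 2.4 in treated tumours of 16 h, where the groups overlapped. Its log2 change there was -0.56 (standard error 0.37, limma, adjusted p = 0.36), and 1.33 at 48 h (standard error 0.45, limma, adjusted p = 0.039).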

How the data were processed

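The authors deposited 1 linear intensity per probe set and tumour. The submitters' processing notes name MAS5, and no source used here gives its version or scaling. Of 45101 probe sets, 64 controls were left out, and 32842 that reached the 40th percentile of their array on at least 2 arrays were tested. With R 4.3.3 and limma 3.58.1, 1 model with a mean for each of 8 groups was fitted to log2(signal + 4) of all 21 arrays (13 residual degrees of freedom, mean-variance trend). Tests were two-sided, with Benjamini-Hochberg adjustment over all probe sets and a threshold of 0.05. The offset understates changes of dim probe sets. The model was tested on simulated data. The 3 arrays of a side limit the precision, and no detection call was used. The DNA arrays were not used here.

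Members, lists and settings were chosen with earlier results of these data known. The rule for named genes took, with 0 probe sets paired with genes, the 2 largest falls and the 2 largest rises that passed. The planned descriptions of 15 gene lists and 11 marker lists and the promoter search were not made for that reason. Alternatives covered the offset, scaling, filter, trend, weights, samples and a block on mouse number. Figures were drawn with Python 3.11.15 and matplotlib 3.10.9.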

Additional observations from a re-analysis of the deposited data

Results flagged for a closer look

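The probe set 1427782_a_at was singled out because the effect of LDE225 on it differed between times in a direct test. The effect at 16 h minus that at 4 h was -2.60 on the log2 scale (standard error 0.52, limma, adjusted p = 0.0073), with treated tumours above vehicle in 3 of 3 at 4 h and groups that overlapped at 16 h. The probe set was picked as the largest called rise at 4 h and the difference includes those 4 h tumours, so it is no independent test. Each vehicle value at 4 h lay below the 40th percentile of its array. At 16 h the treated values of 9.2, 9.3 and 2.4 lay below 11.2, the lowest 40th percentile of any RNA array. So did the vehicle values of 10.6 and 7.8 at 16 h, but not that of 16.8. The size of the difference is therefore uncertain. Its vehicle signal was 1.63 ± 0.451 (SD, n = 3) at 4 h and 11.7 ± 4.61 (SD, n = 3) at 16 h, and its treated signal 19.7 ± 6.56 (SD, n = 3) and 6.97 ± 3.96 (SD, n = 3).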

How the results depend on the processing

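The number of probe sets called at 4 h, 34, was 126 with the 16 arrays of vehicle and sensitive tumours, 118 with only the 6 arrays of 4 h, 93 with array weights and 17 without the trend, and 24 to 34 under the other settings that kept all arrays. Leaving out single tumours gave 2 to 31. After the mean of each group was subtracted, same-numbered tumours had correlations of 0.12, 0.04 and 0.14. Mouse numbers were not taken as pairs in the main fit. As a block they gave 29 calls in the fit of all arrays and 393 with only the 6 arrays, where 2 residual degrees of freedom were left. Of the 6 tumours, 5 correlated best with their own number. These 6 matches are tied to each other because group means were subtracted, so the count does not show pairing. Calls were lost in 6 of 20 alternatives for 1426872_at, 11 of 19 for 1427782_a_at, which the stricter filter left untested, 14 of 20 for 1436923_at and 0 of 20 for 1449058_at (limma), with no change of direction among those run. The count of large changes not called, 674, was 53 with an offset of 32. Of the 31 falls, the number whose effect differed between 48 h and 4 h, 11, was 18 with the 16 arrays and 17 with array weights. The number between 16 h and 4 h, 3, was 1 without the trend, 5 with array weights, and 1 to 4 when single tumours were left out, with 1 without LDE225 tumour 2 or 3 of 16 h. Settings with only the 6 arrays give no later time. Signal near background limits the dimmest probe sets.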
